A study of Rattus norvegicus with 12 samples.

Results

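PPAR-alpha, the fatty acid receptor encoded by Ppara, and 7 genes that it controls in fasting liver (Creb3l3, Fgf21, Angptl4, Vnn1, Cyp4a1, Fabp1 and Pdk4) were followed in rat livers. The genes were chosen by name, as PPAR-alpha and known targets of it, with earlier results of these data known. They are 8 of the 14217 genes named alone by a probe set of the array, and 9 of its 31099 probe sets read them (Pdk4 has a pair). The gene lists used below were also chosen with earlier results known. Livers came from 4 groups of 3 animals, with 1 Affymetrix array per animal. Germ-free Sprague-Dawley rats (animals 1, 3 and 4), which have no gut microbes, were set against conventional Sprague-Dawley rats that were not germ-free (6, 7 and 8). Han Wistar rats that drank streptomycin and penicillin for 8 days up to necropsy (13, 14 and 15) were set against untreated Han Wistar controls (1, 2 and 3). Penicillin is given as 2 mg/ml, streptomycin as 4 mg/ml and the supply as a concentrated stock, without settling whether these are the strengths of the stock or of the water that was drunk. No age, sex, diet, feeding state or hour of collection is given in the labels for any group, and a group difference in any of them cannot be told apart from the condition named. Strain and experiment changed together, and levels of the Sprague-Dawley and Han Wistar groups were never tested against each other. Whether animals of a group came from separate litters or cages is not stated, so each p-value below measures the spread between these animals alone.

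PPAR-alpha is a nuclear receptor that pairs with a retinoid X receptor, is activated by fatty acids, and switches on the uptake, binding and burning of fat in hepatocytes when an animal fasts. Among its targets, FGF21 and ANGPTL4 are secreted hormones, VNN1, CYP4A1 and FABP1 handle fatty acids or the coenzyme A they are bound to, and PDK4 keeps pyruvate out of the mitochondrial fuel supply. CREB3L3, also called CREBH, is a transcription factor of the liver and gut that is held in the endoplasmic reticulum until it is cleaved; in mice it acts with PPAR-alpha on the Fgf21 gene.

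The receptor dimer binds a direct repeat of AGGTCA with a single spacer base, and Fabp1 is shown as the member whose promoter window holds a relaxed form of it. Fgf21 and Creb3l3 are shown beside it as the genes called lower in germ-free livers for which a promoter was at hand. RefSeq promoters of build GRCr8 covered 6 of the 8 genes (not Vnn1 or Cyp4a1), and each was searched over the 250 bases before the gene's start on both strands. Capitals mark matches to the motifs searched. These were the relaxed direct repeat (a pair of AGGNCA with any base between them), its unit AGGTCA, the C/EBP-ATF element TTGCATCA, the E-box CACGTG and the core TGACG of cAMP response elements. The strict repeat, a pair of AGGTCA with any base between them, was also searched. It matched none of the 6 windows, and 0.0546% of all promoters. The Fabp1 window (chr4:104749090-104749339, plus strand) holds 1 relaxed repeat on the opposite strand, and the Creb3l3 window (chr7:9273070-9273319, plus strand) holds 1 AGGTCA and 1 TGACG. The Fgf21 window (chr1:105221377-105221626, minus strand) holds TTGCATCA, CACGTG and, on the opposite strand, TGACG.
Fabp1: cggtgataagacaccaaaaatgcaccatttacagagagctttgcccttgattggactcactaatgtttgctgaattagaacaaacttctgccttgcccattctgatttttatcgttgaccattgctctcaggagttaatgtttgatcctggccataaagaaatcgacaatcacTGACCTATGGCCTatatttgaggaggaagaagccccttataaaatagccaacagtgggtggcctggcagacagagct
Creb3l3: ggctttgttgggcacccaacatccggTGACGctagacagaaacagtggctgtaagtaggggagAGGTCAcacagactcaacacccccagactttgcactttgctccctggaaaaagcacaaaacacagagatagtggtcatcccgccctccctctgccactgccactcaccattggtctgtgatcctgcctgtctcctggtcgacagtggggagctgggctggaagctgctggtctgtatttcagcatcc
Fgf21: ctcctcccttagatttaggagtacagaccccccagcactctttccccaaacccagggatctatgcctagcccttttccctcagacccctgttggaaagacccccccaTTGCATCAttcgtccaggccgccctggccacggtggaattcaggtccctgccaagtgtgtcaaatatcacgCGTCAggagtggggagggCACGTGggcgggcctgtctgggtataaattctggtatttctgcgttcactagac
In the Fabp1 window the repeat lies at -77 to -65 from the start and reads TGACCTATGGCCT on the printed strand; the window's AGGTCA match lies inside it. Of all 27457 promoters, 0.353% held a match to the relaxed repeat, 13.7% to AGGTCA, 0.656% to TTGCATCA, 5.79% to CACGTG and 19.0% to TGACG in windows of the same length. No motif searched was found in the Ppara, Angptl4 or Pdk4 windows. A match is a run of letters, and these data do not measure binding there.

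Signals are the linear MAS5 values as deposited, with trimmed means of 100.04 to 100.05 on every array. Changes are log2 fold changes of signal + 16 with their standard errors, and adjusted p-values are those of limma over the 9300 genes tested, with a threshold of 0.05. Hepatocyte markers were bright in all livers, with summed signals over 11 markers of 73090 to 81260 in germ-free and 67940 to 73950 in conventional livers. None of these 11 passed the test in either comparison. Adipoq, Lep, Plin1 and Fabp4, which mark fat cells, and all 8 skeletal muscle markers averaged below the filter signal of 19.67 in germ-free and conventional livers. Of the other fat cell markers Cidea averaged 137.4, Cfd 86.4 and Lipe 61.11 over all animals. In control Han Wistar livers 5 of the 8 muscle markers averaged below the filter signal, with a summed signal of 115.9 to 225.4. With antibiotics all 8 did (51.9 to 60.4). Of 8 exocrine pancreas markers 5 to 7 averaged below it, depending on the group, and Cela1 averaged 532.2 over all animals. Endothelial markers were called higher in germ-free livers for 6 of 7, beside 6.44% of all tested genes. Their summed signal was 1640 to 2317 in germ-free against 819.0 to 1063 in conventional livers. Of 8 macrophage markers 1, Clec4f, was called lower (-0.64), beside 6.74% of all tested genes called lower. The Clec4f call was lost in limma without germ-free animal 1 or 4, without conventional animal 7 or 8, and with the actin ratio as a covariate (adjusted p 0.0505 to 0.16). The 3' to 5' signal ratio of actin, a sign of RNA quality, averaged 4.39 ± 0.762 (SD) in germ-free livers and 5.37 ± 0.839 in conventional livers (n = 3 each; exact permutation test, two-sided p = 0.2, where 0.1 is the smallest possible). In Han Wistar livers it averaged 2.73 ± 0.131 with antibiotics and 2.55 ± 0.123 without (exact permutation p = 0.2, n = 3 each). The part of these values in the results below was not tested beyond the fit with the actin ratio as a covariate. In whole liver, fewer cells of a type and less RNA per cell cannot be told apart.

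Germ-free livers had lower Vnn1, Fgf21, Cyp4a1 and Creb3l3 transcript than conventional livers. In all, 4 of the 8 genes were called lower, 0 were called higher and 4 did not pass, beside 6.74% of all tested genes called lower and 6.44% called higher. Because the 8 genes were chosen with earlier results of these data known, their count is not that of an unselected set. Vnn1 changed most (log2 -3.13) and Creb3l3 least (-0.70) among the called genes. The median log2 change of the 8 genes was -0.53, beside 0.03 over all genes. Groups did not overlap for 5 of the 8, against 29.9% of all tested genes, and 5 had an unadjusted p under 0.05, against 28.1%.

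Ppara itself, the receptor gene, did not pass the test. Its signal was 40.3, 25.1 and 39.3 in germ-free animals 1, 3 and 4, against 20.9, 3.2 and 17.3 in conventional animals 6, 7 and 8. All 3 germ-free values lay above all 3 conventional ones, though 2 of the conventional values were below the filter signal. So were 2 antibiotic and 2 control values. Mean signals were 34.9 in germ-free, 13.8 in conventional, 24.57 in antibiotic and 18.47 in control livers. Ppara thus met the filter through the germ-free and antibiotic groups. The log2 change was 0.81 ± 0.26 (95% interval 0.25 to 1.38) and missed the threshold in limma (adjusted p = 0.0569, n = 3 each). With array weights it was 1.07 (adjusted p = 0.012), and without conventional animal 6 it was 0.99 (0.0406), both of which pass. With 1 animal left out the change ran from 0.52, without conventional animal 7, to 0.99. Over all 24 alternatives the adjusted p in limma ran from 0.012 to 0.268. Leaving out antibiotic animal 13, which is in neither group but shares the estimate of the spread, left 0.81 and gave 0.0344 in limma. Because the signals are low, the added constant set the size of the change, which was 1.56 with an offset of 1 and 0.35 with an offset of 64.

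Creb3l3, the membrane-bound transcription factor, had the most even signals of the called genes. It read 2163.7, 1793.1 and 1752.3 in germ-free animals, against 3224.3, 2885.2 and 3147.5 in conventional animals. The highest germ-free liver was well below the lowest conventional one. The log2 change was -0.70 ± 0.11 (limma adjusted p = 0.000826, n = 3 each), and it passed in all 25 alternatives.

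Fgf21, the fasting hormone of the liver, was read at 21.5, 14.9 and 47.5 in germ-free animals 1, 3 and 4, against 136.7, 60.6 and 57.4 in conventional animals 6, 7 and 8. The groups did not overlap, but germ-free animal 4 came near the lowest conventional livers, and 1 germ-free value was below the filter signal. The log2 change was -1.18 ± 0.28 (limma adjusted p = 0.0134, n = 3 each). Without germ-free animal 3 it was -0.96 and no longer passed (adjusted p = 0.0702). With an offset of 64 it was -0.67.

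Angptl4, the secreted inhibitor of lipoprotein lipase, read 838.5, 630.2 and 705.2 in germ-free animals, against 476.9, 472.2 and 1328.9 in conventional animals 6, 7 and 8. One conventional liver, animal 8, stood above all germ-free livers, and the other two stood below them. The log2 difference was 0.10 ± 0.37 (limma adjusted p = 0.894), with an interval of -0.70 to 0.90 that leaves room for a change either way. Without conventional animal 8 it was 0.58 and did not pass.

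Vnn1 encodes pantetheinase, which releases the coenzyme A precursor pantothenate and cysteamine. Its signal was 243.4, 63.8 and 49.4 in germ-free animals 1, 3 and 4, against 1025.4, 1065 and 785.7 in conventional animals 6, 7 and 8. The brightest germ-free liver was far below the dimmest conventional one, although animal 1 stood apart from the other germ-free livers. The log2 change was -3.13 ± 0.38 (limma adjusted p = 0.000151, n = 3 each), and it passed in all 25 alternatives, between -3.74 and -2.62.

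Cyp4a1, a fatty acid omega-hydroxylase long used as a readout of PPAR-alpha in rat liver, had signals of 2558.5, 1416.9 and 2640.5 in germ-free animals 1, 3 and 4. Conventional animals 6, 7 and 8 had 4878.3, 3429.2 and 3530.8. Every germ-free liver was lower than every conventional one, and animals 3 and 6 were the extremes. The log2 change was -0.87 ± 0.22 (limma adjusted p = 0.02, n = 3 each). It missed the threshold without germ-free animal 3 (-0.58, adjusted p = 0.0832), without conventional animal 6 (-0.71, 0.0758) and with the actin ratio as a covariate (-0.78, 0.129). Cyp4a genes are close relatives, so this probe set could also bind transcripts of the others.

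Fabp1, the abundant fatty acid carrier of the hepatocyte cytosol, read 9328.9, 10681.1 and 11450.2 in germ-free animals, against 9318.7, 9395.7 and 9856.9 in conventional animals. The groups overlapped, and the log2 difference was 0.13 ± 0.11 (limma adjusted p = 0.448, n = 3 each). Pdk4, the kinase that inhibits pyruvate dehydrogenase, was read by a brighter probe set at 333.9, 249.7 and 328 in germ-free animals, against 380.8, 172 and 894.6 in conventional animals. Conventional livers lay on both sides of the germ-free ones, and the log2 difference was -0.36 ± 0.44 (adjusted p = 0.642 in limma). The dimmer Pdk4 probe set read 92.5, 120.7 and 128.4 in germ-free animals, against 86.2, 55.8 and 197 in conventional animals. Its difference had the other sign, 0.15 ± 0.35 (limma adjusted p = 0.819), and neither passed (12.2% of all probe sets tested alone did).

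**Figure D1:**
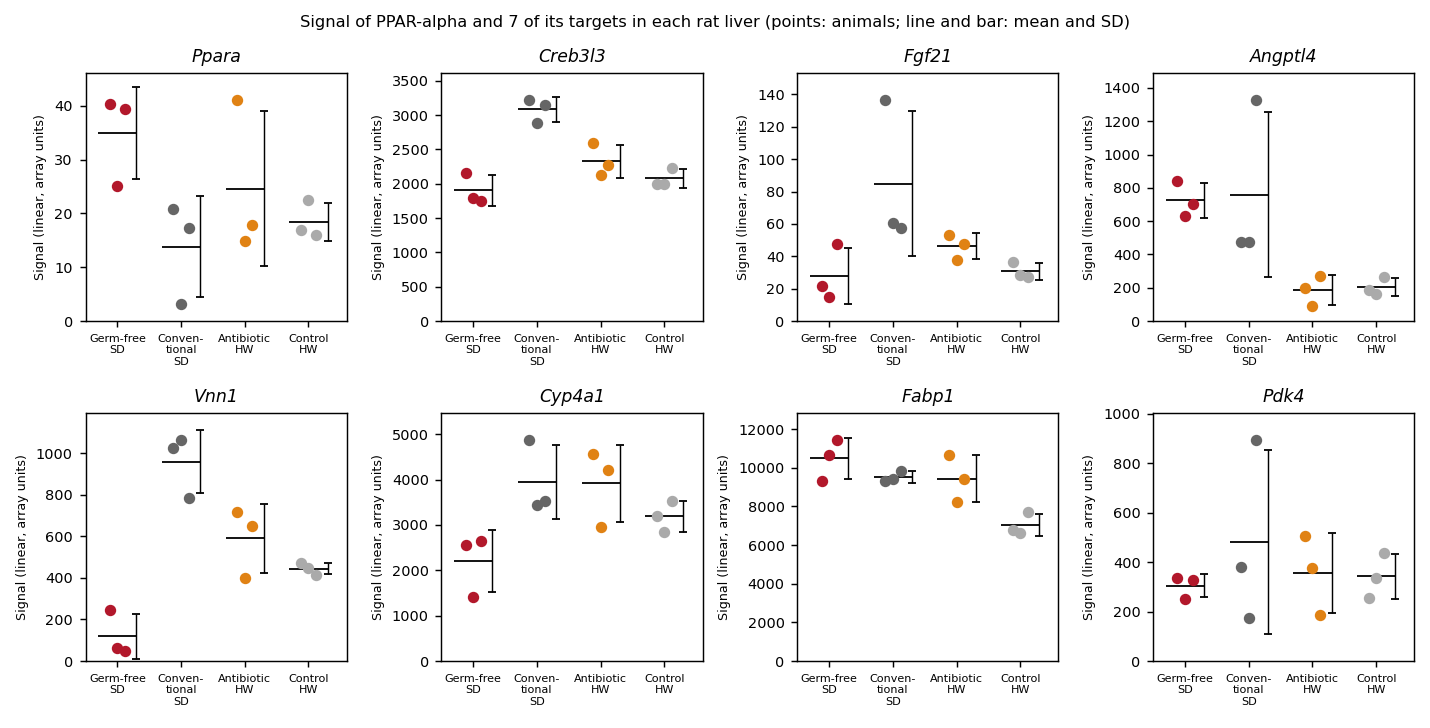
Linear array signal (y axis, array units, from 0) of the 8 genes in each of the 12 livers, by group (x axis; SD, Sprague-Dawley; HW, Han Wistar); points are animals, the line is the mean and the bar beside it the SD (n = 3). Germ-free points lie below all conventional points for Creb3l3, Fgf21, Vnn1 and Cyp4a1 and above them for Ppara; Pdk4 is its brighter probe set.

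Antibiotic-treated livers showed no called change in any of the 8 genes against untreated livers. In limma 0 of 8 passed, beside 0.0215% of all tested genes (2 of 9300, both lower), and 1 of the 8 had an unadjusted p under 0.05, beside 10.4% of all genes. Log2 differences were positive for 6 of the 8, with a median of 0.23, beside 0.00 over all genes. Groups did not overlap for Fabp1 and Fgf21, 2 of the 8, against 18.3% of all tested genes.

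Fabp1 had the smallest p of them. Its signal was 10666, 8218 and 9423.8 in antibiotic animals 13, 14 and 15, against 6779, 6640.1 and 7693 in control animals 1, 2 and 3. Every treated liver was above every control liver, by a log2 difference of 0.42 ± 0.11 with an unadjusted p of 0.00175 and an adjusted p of 0.187 in limma. Markers of hepatocytes lay higher beside it. Their median log2 difference was 0.39, and 9 of 11 had groups that did not overlap, with 0 called and 9 at an unadjusted p under 0.05 in limma. Their summed signal was 57630 to 70830 in treated and 44930 to 53740 in control livers. Macrophage markers also had positive differences, 8 of 8 with a median of 0.52, of which 0 were called, 5 had an unadjusted p under 0.05 in limma and 3 had groups that did not overlap. Their summed signal was 2121 to 3215 in treated and 1512 to 2290 in control livers. Of all tested genes 10.4% had an unadjusted p under 0.05 in limma and 18.3% had groups that did not overlap. Under quantile normalization, which gives every array the same distribution, the Fabp1 difference was 0.00. Fabp1 ranked 1, 2 and 1 on the treated arrays and 1, 1 and 2 on the control arrays. Those ranks fixed the value of 0.00 in advance, so it cannot tell whether scaling had a part in the difference. Fabp1 was among the brightest probe sets of every array. The part of the hepatocyte and macrophage markers in its difference was not tested.

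The 4 genes that were called in germ-free livers had the opposite sign with antibiotics, none of them called. Vnn1 was 716.3, 401.8 and 652.2 in treated livers, against 473.1, 446.6 and 415.9 in control livers. The treated livers spread to both sides of the controls, with a log2 difference of 0.36 ± 0.38 (limma adjusted p = 0.809). Fgf21 was 53.3, 37.7 and 47.7 in treated livers, against 36.3, 28.6 and 27.0 in control livers. These groups did not overlap, but the gap was narrow and the log2 difference of 0.41 ± 0.28 did not pass in limma (adjusted p = 0.658).

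Cyp4a1 read 4563, 2961.2 and 4218.5 in treated livers, against 3194.9, 2851.3 and 3535 in control livers. Treated animal 14 lay among the controls, and the log2 difference was 0.27 ± 0.22 (limma adjusted p = 0.734). Creb3l3 read 2593.6, 2122.9 and 2275.4 in treated livers, against 2003.2, 1997.6 and 2232.9 in control livers (log2 0.16 ± 0.11, limma adjusted p = 0.647). For Ppara the treated livers gave 41.1, 14.8 and 17.8, against 17.0, 22.5 and 15.9 in control livers, so that animal 13 alone set the sign of the log2 difference of 0.18 ± 0.26. Without animal 13 the Ppara difference was -0.09.

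Angptl4 signals were 198.6, 92.2 and 271.6 in treated livers, against 183.8, 164.7 and 264.4 in control livers (log2 -0.20 ± 0.37). Pdk4 signals from the brighter probe set were 506.8, 376 and 184.6 in treated livers, against 255.2, 336.2 and 437.7 in control livers (log2 -0.03 ± 0.44). The dimmer Pdk4 set gave 169.5, 135.6 and 64.1 in treated livers, against 100.7, 106.9 and 148.5 in control livers (log2 -0.02; 0.0193% of probe sets tested alone passed). In each of these the treated animals lay on both sides of the controls.

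The germ-free and antibiotic comparisons share no animal, and the difference between them was tested in the same fit as the germ-free change minus the antibiotic change. It passed for 4 of the 8 genes, all lower, beside 5.94% of all tested genes (3.25% lower and 2.69% higher). The differences were -3.48 for Vnn1 (limma adjusted p = 0.00249), -1.60 for Fgf21 (0.0324), -1.14 for Cyp4a1 (0.0481) and -0.86 for Creb3l3 (0.0047). Those of Vnn1 and Creb3l3 passed in all 24 alternatives. That of Fgf21 was lost in 7 of 23, in 6 of which 1 animal was left out (germ-free 1 or 3, control 2 or 3, antibiotic 13 or 15), with adjusted p up to 0.0821 in limma. That of Cyp4a1 was lost in 17 of 24, among them leaving out any 1 animal other than germ-free 1 or 4 or antibiotic 14, with an adjusted p up to 0.166 in limma. For Ppara the difference was 0.63 and did not pass (limma adjusted p = 0.367).

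**Figure D2:**
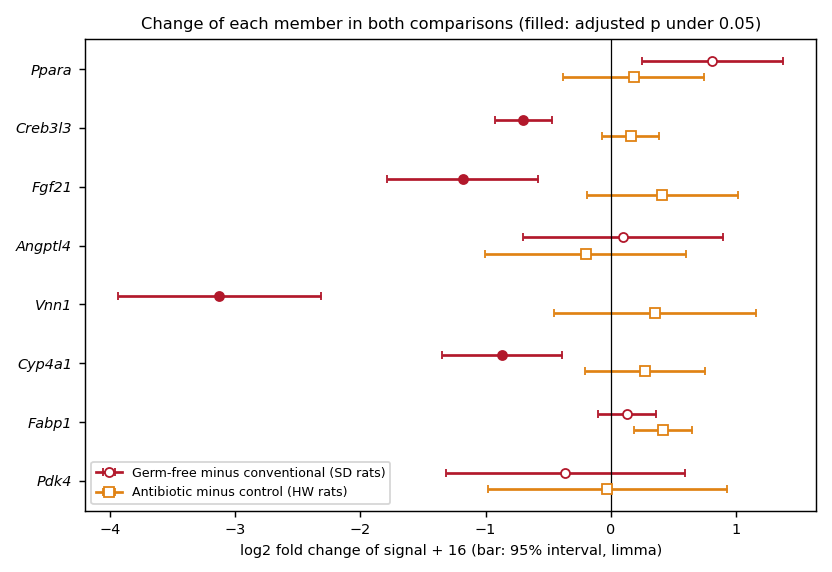
Log2 fold change of signal + 16 (x axis) for the 8 genes (y axis) in germ-free minus conventional livers (circles) and antibiotic minus control livers (squares); bars are 95% intervals from limma and filled marks have an adjusted p under 0.05. The filled circles are Creb3l3 (-0.70), Fgf21 (-1.18), Vnn1 (-3.13) and Cyp4a1 (-0.87), and no square is filled.

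Ordered by mean signal over the 4 groups, Vnn1, Fgf21, Cyp4a1 and Creb3l3 shared 1 order, namely conventional, antibiotic, control and germ-free livers, high to low. Neighbours in that order did not all differ beyond their spread. The ranges of antibiotic and control livers overlapped for Vnn1, Cyp4a1 and Creb3l3, those of control and germ-free livers for Fgf21 and Creb3l3, and those of conventional and antibiotic livers for Cyp4a1. Mean Vnn1 signals were 119 ± 108 in germ-free livers, 959 ± 151 in conventional livers, 590 ± 166 in antibiotic and 445 ± 28.6 in control livers (SD, n = 3 each). Mean Angptl4 was highest in both Sprague-Dawley groups, and mean Ppara was highest in germ-free livers, with ranges of all neighbours overlapping for Ppara.

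The genes differed in how much animals of 1 group varied. Residual SDs on the log2 scale were 0.70 for Pdk4, 0.59 for Vnn1, 0.59 for Angptl4, 0.42 for Fgf21, 0.38 for Ppara and 0.34 for Cyp4a1, against a median of 0.18 over all genes. Between 93.4% and 99.5% of tested genes varied less than these 6. Fabp1 and Creb3l3 were steadier, with 0.14 and 0.13. Conventional animal 8 was 0.97 above its group mean for Angptl4, 1.16 above for the brighter Pdk4 set and 0.88 above for the dimmer one. The same liver held the highest signal of its group for 14 of 22 genes of the hepatic fasting response and 8 of 11 hepatocyte markers, beside 29.5% of all tested genes. Over the 40 wider targets, conventional animal 6 was highest for 22 and animal 8 for 14, beside 40.8% and 29.5% of all tested genes. One of the fasting genes was Pck1, the entry enzyme of gluconeogenesis (5025.9 in animal 8, beside 1858.3 and 4151 in animals 6 and 7). Igfbp1, a binding protein that insulin holds down, was likewise highest there (791, beside 153.6 and 544.3). It was named after its values were seen. What set this liver apart was not tested. Germ-free animal 3 and antibiotic animal 14 were lowest of their groups over the 40 wider targets described below, with median deviations of -0.18 and -0.21.

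**Figure D3:**
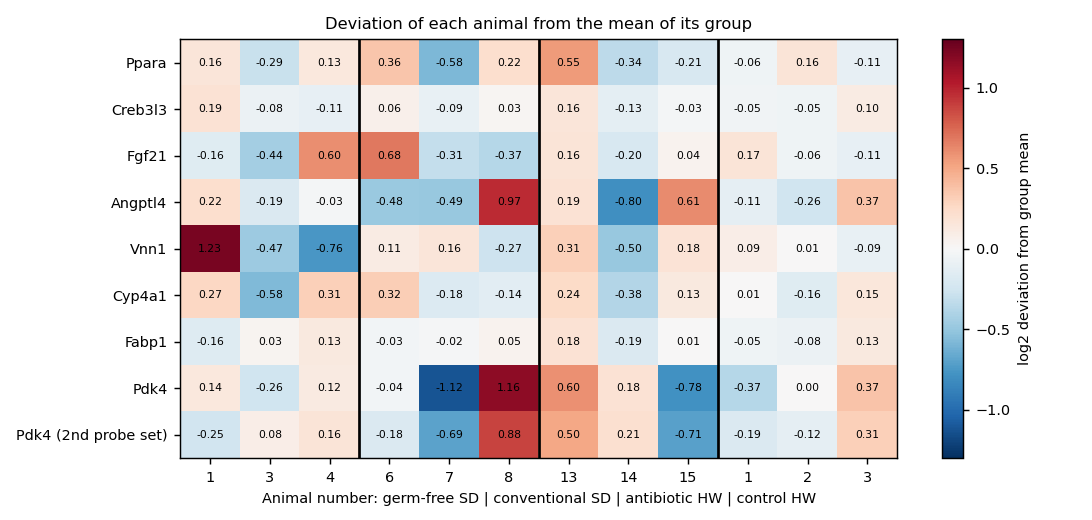
Log2 deviation of each liver from the mean of its group (colour and printed value) for the 9 probe sets (rows) in the 12 animals (columns, by group from germ-free to control). Conventional animal 8 is high for Angptl4 (0.97) and both Pdk4 probe sets (1.16 and 0.88), and germ-free animal 1 for Vnn1.

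Close relatives and direct partners of the 8 genes formed a list of 32, of which 25 could be tested. In germ-free livers 4 were lower, 1 was higher and 20 did not pass, beside 13.2% of all tested genes called in either direction. Their median log2 change was 0.07, beside 0.03 over all genes. Cyp4a3, another omega-hydroxylase, read 2909.5, 2146.9 and 2007.1 in germ-free animals, against 5123.5, 5735.6 and 5568.4 in conventional animals. It fell with Cyp4a1 and showed less spread, with a log2 change of -1.23 ± 0.16 (limma adjusted p = 0.00024). Fabp7 (-0.77) and Fabp5 (-0.76), fatty acid carriers best known from brain and skin, were lower while Fabp1 did not pass. Pdha1, a subunit of the pyruvate dehydrogenase complex on which PDK4 acts, was lower too, at -0.74. The sister kinase Pdk2 did not pass (0.27, limma adjusted p = 0.204), but with the mean of its probe sets it was 0.39 and passed (adjusted p = 0.0361). Fgfr4, a receptor of the fibroblast growth factor family, was higher at 0.48 (adjusted p = 0.0181 in limma), a call that was lost in 7 of 25 alternatives, among them leaving out germ-free animal 1 or 3 and conventional animal 6 or 8 (adjusted p 0.0532 to 0.0585).

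Cyp4a8, a further gene of the omega-hydroxylase family, had differences of the opposite sign to Cyp4a1 and Cyp4a3. Its signal was 83.4, 29.2 and 43.3 in germ-free animals, against 14.4, 13.9 and 11.8 in conventional animals, with a log2 difference of 1.13 that did not pass in limma (adjusted p = 0.0878). Antibiotic livers gave 10.1, 25.2 and 55.2, against 150.5, 267.4 and 66.1 in control livers, with a log2 difference of -1.89 (unadjusted p = 0.000464, adjusted p = 0.173 in limma). Groups did not overlap in either comparison. All 3 conventional signals were below the filter signal, so the size of these values rests on the added constant: with offsets of 1 and 64 the germ-free difference was 1.75 and 0.56, and the antibiotic one -2.46 and -1.18. The germ-free difference passed with that comparison's own 6 arrays (adjusted p = 0.0225 in limma) and without control animal 3 (0.0468). The difference between the comparisons was 3.02 on the same scale (limma adjusted p = 0.00853).

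A wider list of 48 further genes described as PPAR-alpha targets in liver had 40 members that could be tested. In germ-free livers 22 were lower, 0 were higher and 18 did not pass, beside 6.74% of all tested genes called lower and 6.44% higher. Their median log2 change was -0.71, beside 0.03 over all genes, and 33 of 40 were negative. Plin2 and Plin5, which coat lipid droplets, were among those called. Plin2 read 1323.5, 1201.2 and 1587.7 in germ-free animals, against 3764.5, 3023.2 and 2987.8 in conventional animals (log2 -1.24, limma adjusted p = 3.7e-05). With the mean of its probe sets in place of the brightest, the Plin2 change was -0.51 (adjusted p = 0.0121 in limma). Plin5, its mitochondria-linked relative, changed by -1.51, and by -0.86 with an offset of 64. Crat, the carnitine acetyltransferase, changed by -1.84 and Slc22a5, the carnitine importer, by -1.57. Cyp2j4, a fatty acid epoxygenase, changed by -1.47 and Me1, the cytosolic malic enzyme, by -2.14. Cpt1a, the gate of mitochondrial fatty acid import, changed by -0.74 (limma adjusted p = 0.00192). Each of these 7 genes passed in every alternative in which it was tested.

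With antibiotics 0 of these 40 targets passed in limma, beside 0.0215% of all tested genes, and 10 had an unadjusted p under 0.05, beside 10.4%. Their median log2 difference was 0.17, beside 0.00 over all genes and 0.39 over the 11 hepatocyte markers, whose part here was not tested. Groups did not overlap for 10 of the 40, against 18.3% of all tested genes. Cpt1a read 2457.8, 2679 and 2321.2 in treated livers, against 2000.1, 1773.7 and 1429.8 in control livers, without overlap (log2 0.53, unadjusted p = 0.000994, adjusted p = 0.176 in limma). Decr1, the mitochondrial dienoyl-CoA reductase, differed by 0.50 (unadjusted p = 0.000784, adjusted p = 0.173 in limma), while in germ-free livers it differed by -0.16 and did not pass. The difference between the comparisons passed for 21 of the 40 targets, beside 5.94% of all tested genes. For 20 of these targets the germ-free change lay below the antibiotic change, and for 1, Cyp4a8, it lay above.

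**Figure D4:**
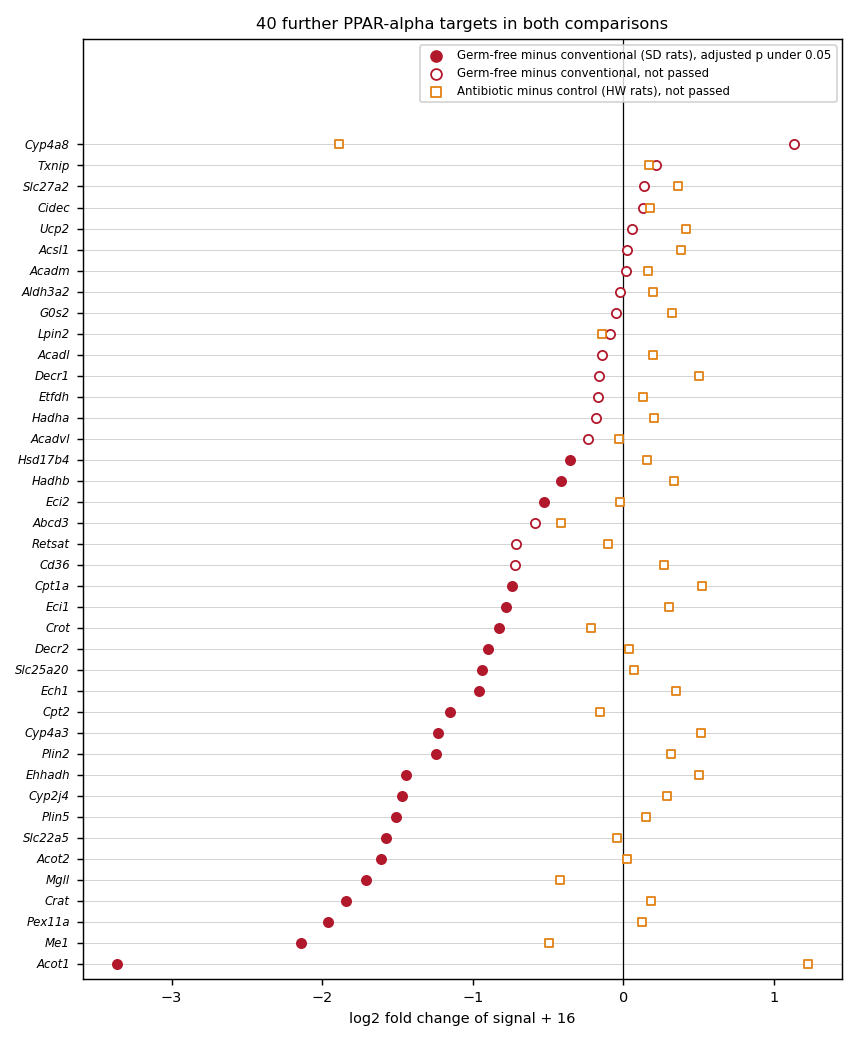
Log2 fold change of signal + 16 (x axis) for the 40 further PPAR-alpha targets tested (y axis, ordered by the germ-free change); circles are germ-free minus conventional livers, filled where the adjusted p in limma was under 0.05, and squares are antibiotic minus control livers. The 22 filled circles all lie below 0 and no square is filled.

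Of 20 listed receptor partners and coregulators 16 were tested, with 1 higher, 1 lower and 14 not passed in germ-free livers (median 0.07), beside 13.2% of all tested genes called in either direction. Rxra, the partner of PPAR-alpha on DNA, was higher by 0.67 (limma adjusted p = 0.0314), a call lost in 9 of 25 alternatives, among them leaving out germ-free animal 3 or 4 and conventional animal 6 or 7 (adjusted p 0.0971 to 0.109) and median centring. Nrip1, a corepressor of nuclear receptors, changed by -0.41 (adjusted p = 0.0464 in limma) and lost its call in 15 of 25 alternatives, among them leaving out any 1 animal other than germ-free 1 or conventional 8 (adjusted p 0.0536 to 0.16). Ppargc1a, the fasting-induced coactivator, did not pass (-0.36, limma adjusted p = 0.487). Nor did Lpin1, which aids it (0.91, adjusted p = 0.0605), though it passed with array weights and without germ-free animal 1, conventional animal 8 or antibiotic animal 15 (adjusted p 0.0375 to 0.0486). With 1 animal left out its difference ran from 0.52 to 1.14.

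The hepatic fasting response held genes called in both directions in germ-free livers. Of 22 tested genes 4 were higher, 2 lower and 16 did not pass (median 0.14), beside 13.2% of all tested genes called in either direction. Those that rose included Sds, serine dehydratase, at 4.05 and Tat, tyrosine aminotransferase, at 1.74. Sesn2, a stress-induced regulator of nutrient signalling (1.81), and Klf15, a transcription factor of amino acid use (1.55), rose too. Those that fell were Cpt1a and Fkbp5, a glucocorticoid-induced chaperone (-1.06). Pck1 was higher in every germ-free liver than in any conventional one, at 5957.4, 6791.2 and 6462.4, against 1858.3, 4151 and 5025.9. Its log2 difference of 0.91 missed the threshold in limma (adjusted p = 0.0659), and without conventional animal 8 it was 1.20 and passed (adjusted p = 0.0279). Without conventional animal 6 it was 0.48 (adjusted p = 0.208 in limma), and it also passed without antibiotic animal 15 (0.0408) and with the actin ratio as a covariate (1.29, adjusted p = 0.04996).

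Feeding genes were called in both directions too, beside 13.2% of all tested genes called in either direction. Of 11 tested feeding genes 2 were higher, 2 lower and 7 did not pass (median 0.23). Germ-free animal 3 held the highest signal of its group for all 11 of them, with a median deviation of 0.52, beside 30.2% of all tested genes, and animal 1 had a median deviation of -0.65. Without animal 3 the Fgf21 and Cyp4a1 calls were lost, while the calls over all genes fell from 1226 to 658. A link of these losses to the feeding genes was not tested. Srebf1, a driver of fat synthesis, was higher by 2.44, and Thrsp, a lipogenic gene, by 2.09 (limma adjusted p = 0.0129, and 0.127 without germ-free animal 3 or 0.0755 without animal 4). Insig1, which retains SREBP proteins, was lower with a log2 change of -0.97, as was Me1 (-2.14). Among core clock genes the repressor Nr1d1 was at 2.39 (1.51 with an offset of 64) and Cry1 at -1.31. Of 15 tested clock genes 5 were higher and 2 lower, beside the same 13.2%. Their part in the changes of the 8 genes was not tested.

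Genes described as targets of CREB3L3 were read beside the lower Creb3l3 transcript. Of 9 tested genes 3 were higher, 0 were lower and 6 did not pass in germ-free livers (median 0.24). In that comparison 13.2% of all tested genes were called in either direction. Apoa5, an activator of triglyceride clearance, was higher by 0.40, Apoc2, the cofactor of lipoprotein lipase, by 0.35 and Apoa4, an apolipoprotein of lipid-rich particles, by 0.30. The limma calls were lost in 9 of 25 alternatives for Apoa5, 12 for Apoc2 and 15 for Apoa4, median centring among them. Leaving out germ-free animal 3 or 4, or conventional animal 7, ended all 3 calls. Conventional animal 6 also carried the Apoa5 call (adjusted p = 0.083 without it), and conventional animal 8, control animals 1 and 2 and antibiotic animal 15 those of Apoc2 and Apoa4. Control animal 3 and antibiotic animal 13 did so for Apoa4 (adjusted p = 0.051 and 0.0509 without them). With antibiotics 0 of 9 passed in limma and 1 had an unadjusted p under 0.05, beside 10.4% of all tested genes.

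The genes most like each called member were found by the root mean square log2 difference over the 12 animals, after each strain was centred. Nearest to Cyp4a1 were Eci1 (0.10), an isomerase of fatty acid oxidation, Phlda2 (0.16) and Ech1 (0.17), a dienoyl-CoA isomerase, where Cyp4a1 itself deviated by 0.43. Fgf21 (0.56) had Tmem120a (0.22), Plin2 (0.24) and Cgref1 (0.26). Nearest to Creb3l3 (0.27) were Fabp7 (0.09), Mrps34 (0.09) and P2rx4 (0.10). Vnn1 (1.21) had Aldh1a1, a retinal dehydrogenase, at 0.41, the peroxisome division gene Pex11a at 0.49 and Akr7a3 at 0.55. Such values grow with the deviation of the member itself, so members were not ranked by them. These are likenesses across arrays that share both comparisons.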

How the data were processed

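Liver RNA of 12 rats was hybridised to Affymetrix arrays. The deposited values are signal intensities on a linear scale, without detection calls, and per the submitters' processing notes came from MAS5 (version not named in these sources). Trimmed means (2% removed at each end) lay between 100.04 and 100.05, and values were used as deposited. Setting aside 57 control probe sets left 31042; 20826 had 1 gene symbol, 436 several and 9780 none. Symbols were updated through gene identifiers (20758) or accessions (2) to the GRCr8 gene table, and 66 were kept.

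Probe sets with a mean signal of at least 19.67, the median, were kept (15523), and the brightest stood for its gene (9300 genes). All 9 probe sets of the 8 genes passed, Ppara through its germ-free and antibiotic means, since its conventional and control means were below the cut. Log2(signal + 16) values were fitted in limma 3.58.1 (R 4.3.3; lmFit with 1 mean per group over all 12 arrays, eBayes with an intensity trend; 8 residual and 5.84 prior degrees of freedom), with two-sided p-values adjusted by Benjamini-Hochberg over all genes and a threshold of 0.05. The second Pdk4 probe set comes from a fit of every probe set. The number of arrays limits the precision (median standard error 0.144 in the germ-free comparison). The fit was tested on simulated data.

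The 8 genes, the gene lists and the rule for named genes were chosen with earlier results of these data known. The rule took, per list, up to 6 genes by smallest p in the germ-free and up to 2 in the antibiotic comparison, the 3 genes most like each called member, and Rxra, Ppargc1a, Fgfr4, Cpt1a and Pdk2. Some genes of the lists were not analysed here. Alternatives were other offsets (1 and 64), filters, scalings, variance priors, array weights, probe set summaries, each comparison's own 6 arrays, the actin ratio as a covariate and leaving out each animal. Promoters are RefSeq sequences of build GRCr8; the array values carry no coordinates.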

Additional observations from a re-analysis of the deposited data

Results flagged for a closer look

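For 4 genes the germ-free change and the antibiotic change differed in the limma test of the difference itself. The germ-free minus antibiotic change was -3.48 for Vnn1, -1.60 for Fgf21, -1.14 for Cyp4a1 and -0.86 for Creb3l3 on the log2 scale. In each, the gene was called lower in germ-free livers and not called in antibiotic livers. Strain, experiment and kind of treatment changed together, so which of them the difference belongs to cannot be told apart. Vnn1 and Creb3l3 kept the call in all 24 alternatives, Fgf21 in 16 of 23 and Cyp4a1 in 7 of 24.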

How the results depend on the processing

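Of the 8 genes, Vnn1 and Creb3l3 were called lower in germ-free livers in all 25 alternatives, and 0 of the 8 were called with antibiotics in any of them (limma; 1 at an unadjusted p under 0.05 in the reported fit). The count called lower (4) ran from 2 to 4 when 1 animal was left out, with 2 without germ-free animal 3. The count called higher (0) was 1 with array weights and 0 to 1 with 1 animal left out, Ppara in each case. The count called for the difference (4) was 2 with no filter, and 2 to 4 with 1 animal left out, being 2 without germ-free animal 3, control animal 2 or 3, or antibiotic animal 13 or 15. Wider targets called higher in germ-free livers (0) numbered 1, Cyp4a8, with each comparison's own 6 arrays, and 0 to 1 with 1 animal left out (1 without control animal 3).

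Over all genes the germ-free comparison called 1226, against 623 with the actin ratio as a covariate, 1690 with array weights and 658 to 1238 with 1 animal left out (658 without germ-free animal 3). The antibiotic comparison called 2, against 1 with an offset of 1, 4 with no filter, 0 with the 75th percentile filter, 6 with a robust prior, 15 with array weights and 0 to 10 with 1 animal left out. The difference called 552, against 869 with array weights, 276 with the actin ratio and 297 to 602 with 1 animal left out (297 without germ-free animal 3, 313 without control animal 2). Median centring shifted the median of all genes in the germ-free comparison by -0.11, and split the called genes into 379 higher and 1122 lower, against 599 and 627 as deposited; log2 changes of single genes moved with it.

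Signs turned only for values that did not pass. In the germ-free comparison Angptl4 (0.10) was -0.0081 with median centring and -0.15 to 0.58 with 1 animal left out, being negative without germ-free animal 1 (-0.0082) and without conventional animals 6 (-0.14) and 7 (-0.15). Pdk4 (-0.36) was 0.16 with array weights and -0.92 to 0.22 with 1 animal left out, Fabp1 (0.13) was -0.0459 with quantile normalization, and Ppargc1a (-0.36) was 0.0015 with the actin ratio. With antibiotics, Ppara (0.18) ran from -0.0903 to 0.36 and Angptl4 (-0.20) from -0.51 to 0.20 with 1 animal left out. Pdk4 (-0.03) was 0.0003 with quantile normalization, 0.0185 with the actin ratio and -0.32 to 0.37 with 1 animal left out. Fabp1 (0.42) did not turn but was 0.00 with quantile normalization, a value fixed by its ranks. For the difference, Angptl4 (0.30) ran from -0.10 to 0.78 with 1 animal left out. Pdk4 was 0.23 with array weights and -0.90 to 0.24 with 1 animal left out, negative in the reported fit. The causes were not tested.

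The 75th percentile filter left Ppara and Fgf21 untested, and the fits on each comparison's own arrays gave no test of the difference. No paired analysis was possible because the groups compared share no animal numbers. Ppara and Fgf21 lie near the filter signal, where a MAS5 signal carries little over background. Detection calls were not used here.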
